A study of Populus trichocarpa with 378 samples.

Results

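The 200 genes with the highest level in wildtype xylem were examined out of the 41334 genes of the count table. Levels were expressed as CPM, the counts of a gene scaled to a common library total of 1000000 counts. The CPM of the 3 wildtype libraries of each of 6 batches were averaged, the 6 batch means were averaged again, and the 200 highest genes were taken. Wildtype levels chose these genes, so they are given as a description. CPM does not correct for gene length, so a place in the order of levels is a share of counts and not of molecules.

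RNA-seq of stem-differentiating xylem was made from trees of Populus trichocarpa genotype Nisqually-1 after 6 months in a greenhouse. The 360 transgenic libraries came from 136 lines of 45 constructs, and the 18 wildtype libraries from 3 pools in each of the 6 batches. Each library was a pool of clonally propagated trees, and the pools of a line share a single transformation event. The constructs knocked down, or in a few cases overexpressed, genes of monolignol synthesis or their regulators under the xylem-specific promoter of Ptr4CL3. The 45 constructs were i15 (knockdown of 4CL3 and 4CL5), i35 (CAD1 and CAD2), a43 (MYB167), i19 (HCT1 and HCT6), i21 (CCoAOMT3), i20 (C3H3), i29 (CAld5H1 and CAld5H2), a46 (MYB156), a44 (MYB090), a13 (4CL5), a9 (C4H2), a10 (C4H1), i26 (CCR2), a1 (PAL1), a3 (PAL4), a4 (PAL5), a5 (PAL2), i6 (PAL1 and PAL3), i8 (PAL1 to PAL5), a22 (CCoAOMT1), a27 (CAld5H1), a28 (CAld5H2), a40 (LIM1), a41 (LIM2), i30 (AldOMT2), i33 (CAD1), i69 (C3H3, C4H1 and C4H2), a2 (PAL3), i7 (PAL2, PAL4 and PAL5), a12 (4CL3), a17 (HCT1), a18 (HCT6), i24 (CCoAOMT1 and CCoAOMT2), i34 (CAD2), i42 (LIM1 and LIM2), i45 (MYB090 and MYB167), a47 (MYB221), i50 (KNOX1), a52 (MYB021), i53 (MYB002 and MYB021), a54 (MYB003), i56 (MYB003 and MYB020), o65 and o66 (knockdown of CAD1 with overexpression of CAD2) and o67 (overexpression of CAD2). The comparison group was wildtype of the same batch, grown and harvested with it. Batches 1 to 6 held 29, 90, 56, 44, 81 and 60 transgenic libraries. Totals ran between 2.12 and 67.4 M counts in transgenic libraries and between 4.57 and 93.5 M counts in wildtype libraries.

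Stem-differentiating xylem is the tissue just inside the cambium in which fibers and vessels expand, lay down a thick secondary wall of cellulose, xylan and lignin, and die. Monolignols, the precursors of lignin, are made there from phenylalanine, and cells at this stage spend much of their transcription on wall-building enzymes. The identifiers in the table are not paired with gene names, and 0 of them matched the reference table used here. The genes are therefore given by identifier only, the genes that the constructs target could not be located among them, and the tissue could not be checked against marker genes.

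The 200 genes held 22.1% of all counts in wildtype xylem, the mean of 18 libraries with a range of 17.2 to 26.5%. The highest gene alone held 0.637%, the first 10 held 4.02%, the first 50 held 11.1% and the first 100 held 16.2%. The first 500 genes of the table held 32.3% and the first 1000 held 41.95%. No single gene dominated the wildtype libraries. In the 360 transgenic libraries the same genes held a median of 22.3% of counts, with a far wider range of 6.65 to 69.7%.

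The most abundant gene was Potri.002G111900, with a wildtype mean of 6369 CPM and batch means of 5018, 8962, 6841, 3946, 6775 and 6671 CPM in batches 1 to 6. It was followed by Potri.006G136700 at 5337 CPM, Potri.002G189000 at 4710 CPM, Potri.002G189200 at 4570 CPM, Potri.012G006400 at 4562 CPM and Potri.010G141600 at 3748 CPM. Levels then fell off slowly. Places 7 to 15 were held by Potri.002G257900, Potri.009G085100, Potri.014G114700, Potri.013G061800, Potri.002G034400, Potri.004G059600, Potri.017G059400, Potri.001G320500 and Potri.005G132300, between 2981 and 2353 CPM. The range of batch means of each of the first 5 genes overlapped that of the next. Compared within batches, Potri.002G189000 was above Potri.002G189200, and Potri.012G006400 above Potri.010G141600, in every batch. The order of the other neighbours among the genes named first changed between batches.

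At the other end the limit was not a natural gap. Potri.016G088700, Potri.003G071700, Potri.007G123300, Potri.004G048300 and Potri.004G161100 lay just inside it, at 468.6 to 461.3 CPM. Potri.014G186000, Potri.007G014200, Potri.019G095700, Potri.008G069900 and Potri.019G112400 lay just outside, at 461.3 to 457.5 CPM. Chosen by the median of the 18 libraries in place of the mean of batches, 189 of the 200 genes were the same.

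All 200 genes had counts in every library. The lowest count of any of them in a library was 4, and 41 of them fell under 100 counts in at least 1 library. Counting error was small, with a median coefficient of variation of 0.999% for these genes against 7.83% for the 25380 genes that reached a wildtype mean of 1 CPM. By the number in the identifier, chromosome 1 held 22 of them, chromosome 5 held 19 and chromosome 10 held 17, and 3 lay on unplaced scaffolds. These were 0.465%, 0.730%, 0.665% and 0.165% of the genes there. The highest share was that of chromosome 9, with 15 genes or 0.879%. The 19 on chromosome 5 include a run of 9 described below. In 14 places, with 36 of the 200 genes, members stood side by side or 1 locus apart in the order of identifiers: 12 pairs, 1 triple (Potri.010G218700, Potri.010G218800 and Potri.010G218900) and 1 run of 9.

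Some pairs moved so closely together that their counts may not be separate measurements. Over the 378 libraries the SD of the log2 ratio between members was under 0.1 in 6 of 19900 pairs, where the median pair had 0.734. In the pair Potri.002G189000 and Potri.002G189200, next to each other in the order of levels, the ratio stayed between 0.998 and 1.06 in every library. Potri.019G038200 and the scaffold gene Potri.T070100 kept a ratio of 0.969 to 1.08. The other pairs were Potri.018G119500 with Potri.018G122700, Potri.013G005500 with Potri.013G005600, Potri.002G101200 with Potri.002G101300, and Potri.019G010400 with Potri.019G006700. How the counting treated reads shared by near-identical copies is not given in the sources used here, their part in these ratios was not tested, and the levels of these 12 genes are uncertain.

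The run of 9 consecutive loci, Potri.005G132300 to Potri.005G133100 on chromosome 5, had the widest ranges. Over the wildtype batches the ratio of the highest to the lowest mean was over 10 for 7 of the 9 loci, against 2 of the other 191 genes. Their wildtype means lay between 931 and 2353 CPM. Together they held a median of 0.860% of counts in transgenic libraries, with a range of 0.132 to 63.7%, and a median of 0.569% in wildtype libraries, with a range of 0.231 to 6.45%. The 2 end loci had a floor that the 7 inner loci lacked. Potri.005G132300 was never under 282 CPM in transgenic or 419.9 CPM in wildtype libraries, while Potri.005G132800 in the middle of the run was as low as 0.236 CPM in transgenic and 0.713 CPM in wildtype libraries and as high as 108259 CPM in transgenic and 11020 CPM in wildtype libraries.

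**Figure D1:**
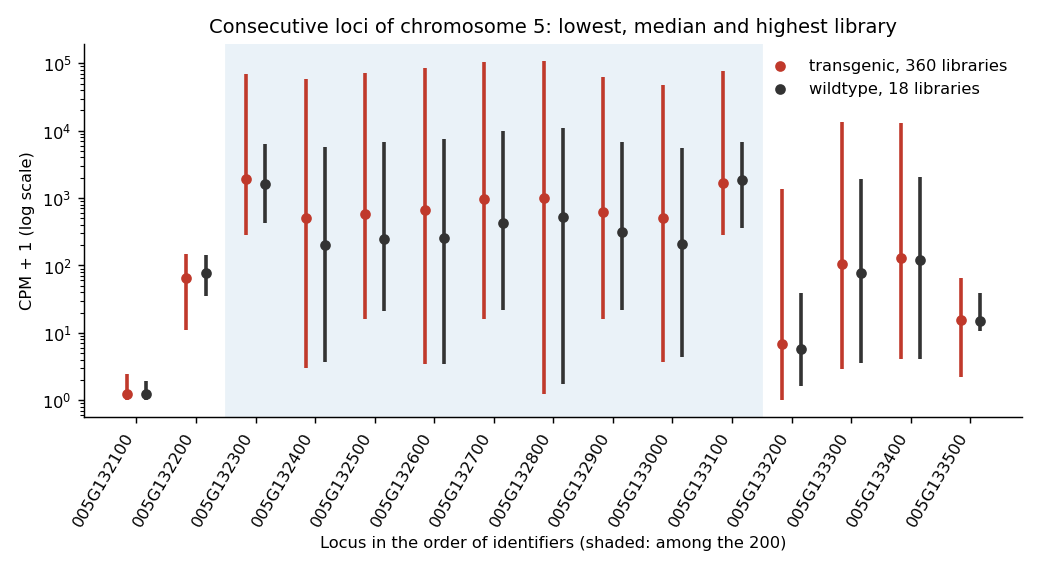
Levels at the run of 9 loci and the loci on either side (CPM + 1, log scale), in the order of identifiers, with the transgenic libraries (red) left of the wildtype libraries (black). Points are medians and lines run between the lowest and highest library: the lowest values of the 7 inner loci are 0.236 to 14.8 CPM in transgenic and 0.713 to 20.7 CPM in wildtype libraries, and they reach up to 108259 CPM in transgenic libraries, while Potri.005G132200, one step to the left, stays between 9.86 and 148 CPM in transgenic libraries.

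The high state came and went within constructs. The 9 loci took over 5% of counts in 45 of 360 transgenic libraries, from 20 constructs, and in 1 of 18 wildtype libraries. They took over 10% in 22 transgenic libraries and 0 wildtype libraries, and over 20% in 9 transgenic libraries and 0 wildtype libraries. With 18 wildtype libraries, a count of 0 says little about a share of this size. Batch 4 stood apart, with 24 of its 44 transgenic libraries over 5%, and its transgenic median of 5.35% and wildtype median of 3.05% were the highest of the 6 batches. In batch 5 the medians were 0.501% in transgenic and 0.269% in wildtype libraries. The highest share, 63.7%, was in a10-14-2 (construct, line and pool), and a44-4-1 of batch 2 reached 21.6% where the other libraries of its construct held 0.168 to 0.680%.

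Within the run the median proportions differed between libraries with a low and a high total. In each library the summed level of the inner loci was divided by the summed level of the end loci. The median of this ratio was 0.411 in the 205 libraries where the run held under 1% of counts. It was 3.63 in 127 libraries at 1 to 5%, 4.17 in 24 at 5 to 10% and 4.13 in 22 over 10%. Where the total was low, the inner loci, though more numerous, thus held fewer counts at the median than the end loci. In the other libraries the inner loci together held more at the median. Since they are more numerous, this does not show that a single inner locus was higher than an end locus. The ranges overlapped, at 0.0107 to 4.35 under 1%, 0.00872 to 6.43 at 1 to 5% and 0.478 to 5.96 over 10%. The total that grouped the libraries includes the inner loci, so a higher ratio at a higher total is partly set by the grouping. Beyond the run, Potri.005G133300 and Potri.005G133400 reached 13576 and 13084 CPM in transgenic libraries, against 1907 and 2030 CPM in wildtype libraries. Potri.005G132200 stayed at or under 148 CPM in transgenic and 141 CPM in wildtype libraries. Among the other members, the log2 levels most like the run were those of the scaffold genes Potri.T141200 and Potri.T141000, with Pearson correlations of 0.653 and 0.623 over 378 libraries that share constructs, lines and batches, and the next member was at 0.300.

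**Figure D2:**
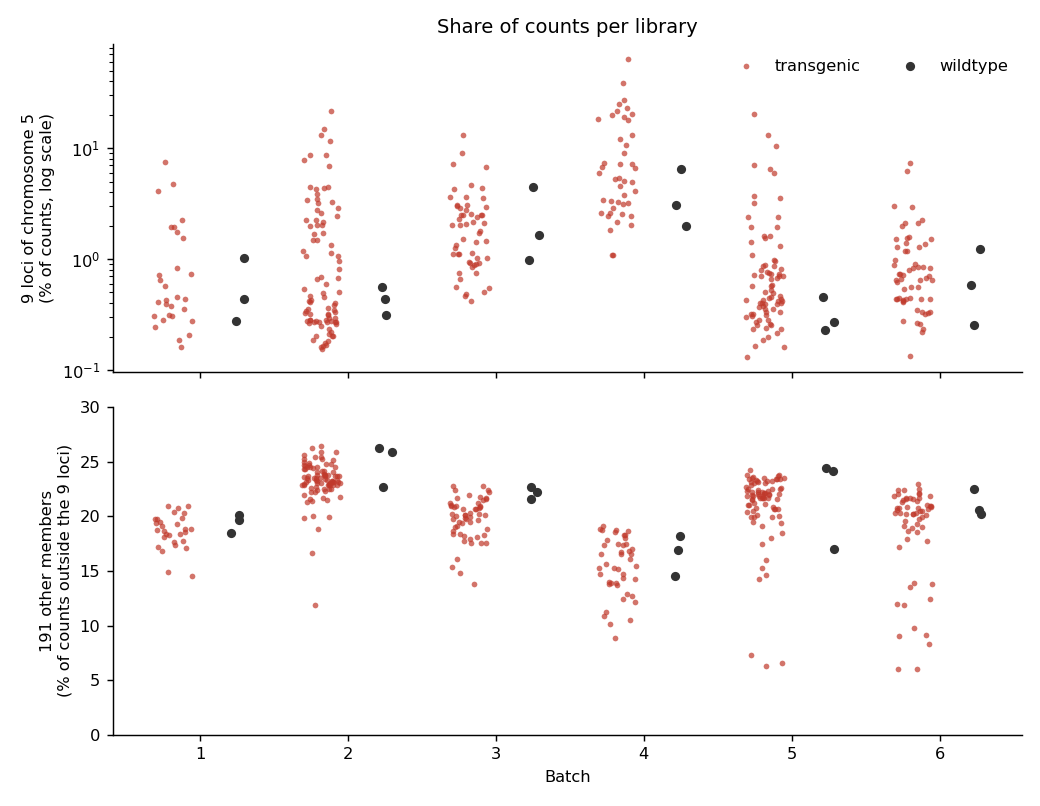
Share of counts per library by batch, with transgenic libraries (red) left of wildtype libraries (black). The upper panel shows the 9 loci of chromosome 5 on a log scale, highest in batch 4, and the lower panel the other 191 genes as a share of the counts outside these loci, with tails of low transgenic libraries in batches 2, 4, 5 and 6 and a lowest value of 5.99%.

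The other 191 genes held a median of 20.9% of the counts outside the run in transgenic libraries, with a range of 5.99 to 26.4%, and 21.1% in wildtype libraries, with a range of 14.6 to 26.2%. The upper ends of both groups were close, and a long lower tail was seen in the transgenic libraries only. With 18 wildtype libraries against 360 transgenic ones, its absence in wildtype says little. One wildtype pool of batch 5 also stood lower than its partners. In that pool Potri.002G111900 had 4120 CPM, against 8339 and 7867 CPM in the other pools.

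Membership among the 200 highest changed between groups. Across the constructs, 188 of the 200 stayed among the 200 highest of the mean over construct groups, and the lowest of the other 12 ranked 237. In single groups the order was looser: 107 genes were among the 200 highest of all 6 wildtype batches, and 315 genes of the table were there in at least 1 batch. Only 46 were among the 200 highest of every construct, and the count in a construct ran between 84 in i15 and 181 in o65. On the log2(CPM + 1) scale the SD between the pools of a line had a median of 0.435 for the 191 genes against 0.291 for the 25380 genes that reached 1 CPM in the wildtype mean. Between the lines of a construct it was 0.527 against 0.241, and between the constructs of a batch 0.366 against 0.203. Within wildtype batches the gap was smaller, at 0.271 for the 191 genes against 0.236 for all genes, and between wildtype batch means it was 0.364 against 0.263. Of all 200 genes, 26 had a smaller SD between lines than the median gene and 68 had a smaller SD within wildtype batches. The wildtype counts and SDs come from the libraries that chose the genes, so they are a description. With no gap at the limit, small differences move genes in or out of the 200.

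The 191 genes also moved largely in the same direction. After removal of batch means, 68.5% of their variance over the 378 libraries lay along a single component, to which 170 of the 191 contributed with the same sign. For all genes that reached a mean of 1 CPM over the libraries, the first component held 30.4%. Genes of lower level carry a larger counting error, and its part in this difference was not tested. Since CPM are shares of a total, and libraries of a line share their trees, these percentages describe the libraries and carry no test.

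Levels in wildtype differed between batches, which were planted and harvested at different times. The edgeR quasi-likelihood test across the 6 batches called 153 of the 200 genes at an adjusted p under 0.05, or 76.5%, beside 54.5% of all 27573 genes tested. The wildtype libraries of this test also chose the members, and a gene that reached the 200 through a single high batch had to differ, so the count is a description. The count rests on 3 libraries per batch: with 1 of the 3 pools left out it was 96, 89 or 39. The share of all genes called in these smaller fits is not given here, so the fall is not read as particular to the 200. Among the 191 genes outside the run, 102 had their highest batch mean in batch 2, a batch that held the maximum of 11.8% of all genes, and 129 had their lowest in batch 4, which held the minimum of 21.6% of all genes. The median ratio of the highest to the lowest batch was 1.99 for the 191 genes and 1.73 for all genes. These batch means also chose the members, so their highest and lowest batches and ratios are a description as well.

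The largest ratios belonged to the run. Potri.005G133000 had 5445, 1796 and 3087 CPM in the wildtype pools of batch 4 and 90.3, 114 and 38.3 CPM in those of batch 2, and the ratio of its highest to its lowest batch mean was 42.5. The pools of these batches did not overlap. Potri.005G132400 followed at 38.8. Both loci reached the 200 through batches 3 and 4, with means of 1937 and 3443 CPM for Potri.005G133000, so no test is given for them. Outside the run, and chosen after their values were seen, Potri.009G030800 and Potri.010G236500 had ratios of 15.9 and 15.0. Potri.010G236500 had 1577, 2170 and 1925 CPM in wildtype pools of batch 4 and 126, 112 and 140 CPM in those of batch 3.

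At the even end, Potri.008G203400 had a ratio of 1.19 between its highest and lowest batch, with 649 to 1193 CPM over the 18 wildtype pools, and Potri.019G006700 had 1.20. Neither was called, with adjusted p of 0.333 and 0.0633 in edgeR, and Potri.019G006700 was called by DESeq2 (adjusted p = 0.000715). Potri.002G111900, the most abundant gene, was called at an adjusted p of 0.00910, which was 0.0524 and 0.210 without pools 1 and 3 of each batch. Potri.002G189000 and Potri.002G189200 had ratios of 1.48 each. Their adjusted p was 0.0789 and 0.0718 in edgeR and 0.00640 and 0.00511 in DESeq2, which called both.

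Whether the constructs of a batch differed from each other was tested without wildtype, so that no library that chose the genes took part. The edgeR test called 56, 148, 181, 19, 70 and 179 of the 200 genes in batches 1 to 6. The shares of all genes called were 24.4%, 77.9%, 82.5%, 18.5%, 51.6% and 82.9%, against 28%, 74%, 90.5%, 9.5%, 35% and 89.5% of the 200. The share of the 200 was above that of all genes in batches 1, 3 and 6 and below it in batches 2, 4 and 5, a difference that was not tested. Pools of a line entered as replicates. With the pools of each line added up, the counts were 0, 55, 41, 0, 2 and 21, beside 0.0141%, 43%, 26.2%, 0.0%, 1.94% and 34.8% of all genes. Most calls of the 200 did not hold when a line counted once, and the share of the 200 called was then at or below that of all genes in each batch, a difference that was not tested.

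Against the wildtype of their batch, the calls ran one way. Over the 45 constructs, 435 calls of the 200 genes were lower and 52 higher at an adjusted p under 0.05 (edgeR), or 4.83% and 0.578% of 9000 comparisons. Of all genes tested, 2.31% were lower and 2.46% higher. Because the same wildtype libraries chose the genes and served as reference, and constructs of a batch share them, each construct was also set against the other constructs of its batch. There 765 calls were lower and 616 higher, or 8.5% and 6.84%, with 7.13% and 8.71% of all genes. Against wildtype, the share of lower calls of the 200 was above that of all genes. Where the wildtype libraries took no part, the shares of lower calls, 8.5% and 7.13%, lay close together. Neither difference was tested, and pools of a line entered as replicates. In a tissue sample, a lower level of a gene in each cell and fewer of the cells that express it cannot be told apart.

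**Figure D3:**
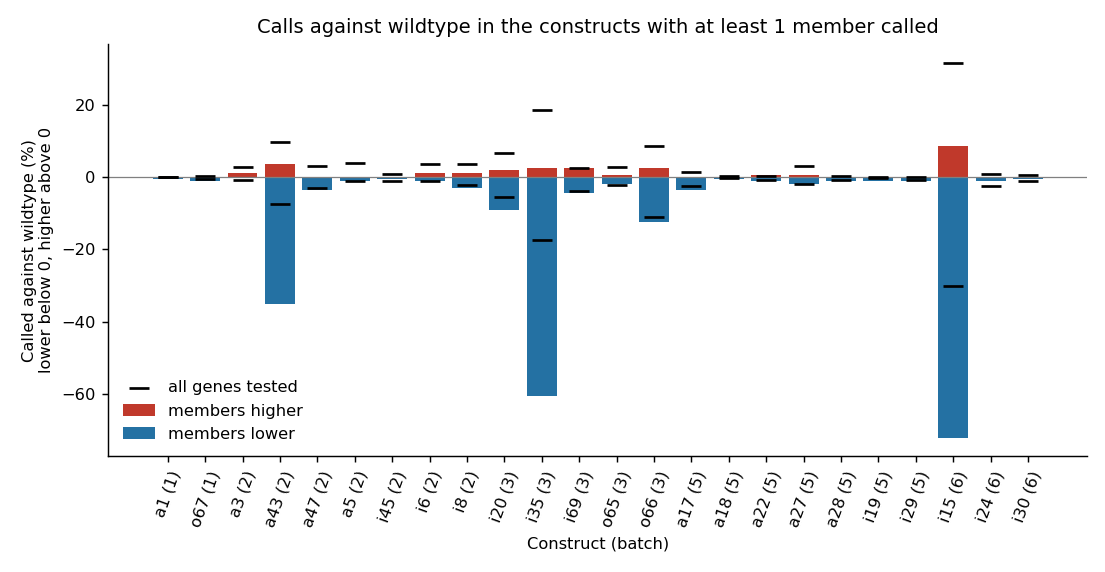
Share of the 200 genes called higher (red, above 0) and lower (blue, below 0) against wildtype in the 24 constructs with at least 1 call, with the share of all genes tested as black ticks. In i15, i35 and a43 the lower bars reach 72%, 60.5% and 35%, past the ticks at 30.2%, 17.3% and 7.51%, and the higher bars stay under their ticks.

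The lower calls were gathered in 3 constructs. Of the 435, 335 came from i15, i35 and a43, with 29 of the 52 higher calls. In 21 constructs no member was called by edgeR, although 343 of these 4200 comparisons had an unadjusted p under 0.05 and DESeq2 called 26. Few genes at all were called there, with 0 to 0.626% of all genes lower and 0 to 2.95% higher. The 21 include all 4 constructs of batch 4, with 29 of 800 comparisons under 0.05 and 0 calls by DESeq2. In batch 4, 0.00316 to 0.0158% of all genes were lower and 0 to 0.00316% higher. By gene, 174 of the 200 were lower in at least 1 construct, 27 were higher in at least 1, 47 were lower in all of i15, i35 and a43, and 13 were called in none. Of all genes tested, 46.6% were lower in at least 1 construct, 49.1% higher in at least 1, 2.74% lower in all of these 3 and 19.3% called in none. The run of 9 loci gave 1 call over the 45 constructs, where 2.31% of all comparisons were lower and 2.46% higher. The median coefficient of variation beyond counting error in the fit of a batch was 0.723 to 1.45 for the run. It was 0.173 to 0.279 for all genes, so the 1 call says little about a response of the run.

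In i15, a knockdown of 4CL3 and 4CL5 in batch 6, 144 of the 200 genes were lower than wildtype and 17 higher. The median log2 fold change of the 200 was -1.34, against 0.06 over all genes, of which 30.2% were lower and 31.6% higher. Potri.002G111900 had 3503 CPM in the pool of line 1, 3004 and 4358 CPM in those of line 2 and 674, 139 and 1335 CPM in those of line 3, against 7223, 6726 and 6065 CPM in wildtype. Every i15 pool lay under every wildtype pool (log2 fold change -1.62, standard error 0.553, adjusted p = 0.0106, edgeR). Potri.006G136700 had 176 to 4563 CPM in i15, with a median of 1621 CPM, against 6592 to 7296 CPM in wildtype (log2 fold change -1.94, standard error 0.589, adjusted p = 0.00474, edgeR). Both calls were lost in a fit of i15 and its wildtype by themselves, at -1.64 and -1.96 (adjusted p = 0.120 and 0.0703, edgeR), and without line 3, at -0.87 and -1.20 (adjusted p = 0.207 and 0.120, edgeR).

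Line 3 of i15 carried much of this. Without it, 42 genes were lower in place of 144, with 17.0% of all genes, whereas 145 and 158 were lower without lines 1 and 2, with 31.1% and 32.7% of all genes. The fit of i15 and its wildtype alone called 75 lower, with 25.9% of all genes. Potri.006G192000 had 2129, 2019, 1001, 2364, 2482 and 2696 CPM in i15 against 409.5, 558 and 570 CPM in wildtype, and the groups did not overlap (log2 fold change 2.02, standard error 0.444, adjusted p = 0.000300, edgeR). It was also higher in a43 and i20, at log2 fold changes of 0.91 and 0.58.

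**Figure D4:**
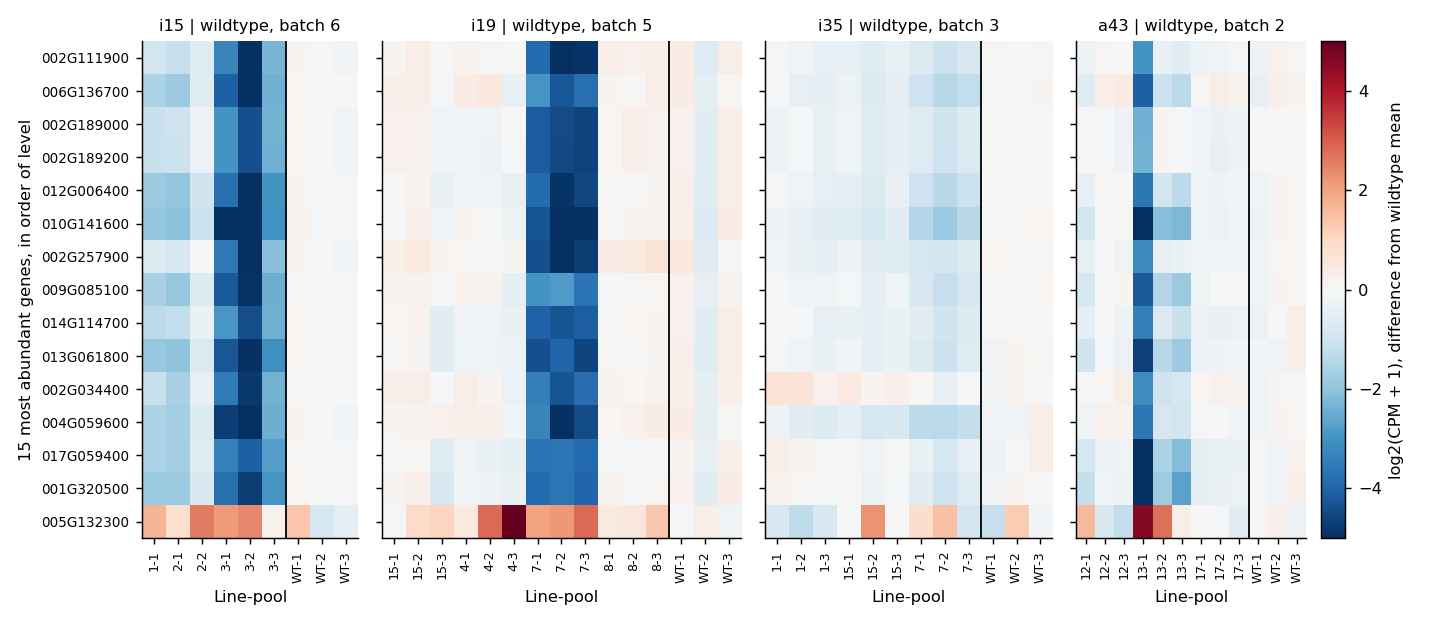
Level relative to the mean of wildtype, as a difference of log2(CPM + 1), for the 15 most abundant genes (rows) in each library (columns) of i15, i19, i35 and a43, with the wildtype pools right of the black line in each panel. Dark blue columns mark line 3 of i15, line 7 of i19 and pool 13-1 of a43, and the last row, Potri.005G132300 of the run, does not follow the rows above it.

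In i35, a knockdown of CAD1 and CAD2 in batch 3, 121 genes were lower and 5 higher, with 17.3% and 18.6% of all genes in these directions. The median log2 fold change was -0.55, against 0.02 over all genes. No single line carried the count: 132, 129 and 89 genes were lower without lines 1, 15 and 7, with 20.2%, 19.5% and 13.6% of all genes. The fit of i35 and its wildtype alone called 52, with 8.81% of all genes. Potri.014G096100 had 190 to 384 CPM in the 9 pools of i35, with a median of 296 CPM, against 844, 647 and 618 CPM in wildtype. The groups did not overlap (log2 fold change -1.46, standard error 0.270, adjusted p = 5.11e-05, edgeR). This gene was lower in 6 constructs, as many as any member.

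In a43, a knockdown of MYB167 in batch 2, 70 genes were lower and 7 higher, with 7.51% and 9.59% of all genes and a median log2 fold change of -0.44 against 0.03. This count was not stable. It was 3 without line 13, and 115 and 112 without lines 12 and 17, with 0.164%, 13.4% and 16.6% of all genes. It was 42, 21 and 1 without wildtype pools 1, 2 and 3, with 4.23%, 3.77% and 0.324% of all genes, and 22 without scaling, with 2.18%. In pool 13-1, the smallest library of the series at 2.12 M counts, 148 of the 191 genes outside the run were over 2-fold under the wildtype mean, with 31.0% of all genes. In pools 13-2 and 13-3 the number was 72 and 81, with 13.2% and 12.0% of all genes, and in the 3 pools of line 17 it was 0, with 0.268 to 1.08% of all genes. In a fit of a43 and wildtype alone, edgeR called 0 genes lower, as it did of all genes (0.0%), with 3 of the 200 at an unadjusted p under 0.05, and DESeq2, in the fit of the whole batch, called 88 in either direction.

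A construct with few calls could still hold a line far from wildtype. In i19, a knockdown of HCT1 and HCT6 in batch 5, 2 of the 200 genes were called lower, beside 0.334% of all genes. In the 3 pools of line 7, 147, 153 and 147 of the 191 genes were over 2-fold under the wildtype mean, with 17.1%, 16.2% and 16.8% of all genes. In the 9 pools of the other lines the number was 0 to 19, with 1.87 to 8.11% of all genes. Potri.002G111900 had 436, 168 and 218 CPM in line 7 and 6194 to 8229 CPM in the other lines of i19, against 8339, 4120 and 7867 CPM in wildtype. The pools of line 7 were alike, and they share a transformation event.

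The lowest libraries can be listed by the share of the 10 most abundant genes, which was 0.119 to 5.65% in transgenic and 2.104 to 5.66% in wildtype libraries. It was under 1% in 15 transgenic libraries of 11 lines, 8 constructs and 4 batches, and in 0 wildtype libraries. With 18 wildtype libraries against 360 transgenic ones, that 0 says little. The 15 libraries were the 3 pools of i15 line 3 and of i19 line 7, 3 pools of a46, 2 of i21, and 1 each of a43, a13, a10 and i26. The lowest share was in i15-3-2, at 0.119%, where 158 of the 191 genes were over 2-fold under wildtype, with 25.0% of all genes. In i21-8-2 it was 0.175%, and 158 of the 191 were again under wildtype, with 20.9% of all genes. In a10-14-2, where the run took 63.7% of counts, 184 of the 191 were under wildtype, with 84.9% of all genes. As a share of the counts outside the run, however, the 191 genes held 16.5% in a10-14-2. This lay within the 14.6 to 18.2% of the wildtype libraries of batch 4, whereas i15-3-2 held 5.99%. Total counts of the 15 libraries were 2.12 to 33.6 M.

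A few genes had the opposite sign in different batches. Potri.015G042800 was higher in 4 constructs, all of batch 3, and lower in 5, of which 4 were in batch 5. In o65 it had 270 to 719 CPM, with a median of 339 CPM in 7 pools, against 209.6, 164 and 197 CPM in wildtype (log2 fold change 1.06, standard error 0.260, adjusted p = 0.0104, edgeR). In i29 it had 413 to 813 CPM, with a median of 489 CPM in 9 pools, against 1450, 993 and 1341 CPM in wildtype (log2 fold change -1.18, standard error 0.201, adjusted p = 0.000146, edgeR). The transgenic ranges overlapped, and the wildtype pools of these batches lay on either side of them. Against the other constructs of batch 3 the difference in o65 was 0.36 and not called (adjusted p = 0.112, edgeR), and in i29 it was -0.93 (adjusted p = 3.48e-07, edgeR). The call in i29 was lost with the pools of each line added up, at -1.15 (adjusted p = 0.0975, edgeR). The call in o65 was lost in a fit with wildtype alone and without wildtype pool 2, at 1.06 and 0.98 (adjusted p = 0.103 and 0.0911, edgeR).

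Potri.010G236500 was lower in 6 constructs, 4 of them in batch 5. In i29 it had 208 to 489 CPM, with a median of 369 CPM in 9 pools, against 1017, 1287 and 1705 CPM in wildtype, with no overlap (log2 fold change -1.90, standard error 0.255, adjusted p = 6.55e-07, edgeR). Against the other constructs of the batch it was -1.24 (adjusted p = 3.48e-07, edgeR), a fit in which the wildtype pools took no part.

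The triple on chromosome 10 was picked out after its values were seen. Potri.010G218700 and Potri.010G218900 were called higher in a3, i6 and i8, which knock down PAL4, PAL1 with PAL3, and PAL1 to PAL5, and in no other construct. In a3, Potri.010G218700 had 792, 826 and 854 CPM against 399.6, 329 and 337 CPM in wildtype (log2 fold change 1.32, standard error 0.309, adjusted p = 0.00251, edgeR). Against the other constructs of batch 2 it was 0.92 (adjusted p = 0.000692, edgeR). The log2 fold changes of the 3 neighbours in a3 were 1.32, 0.76 and 1.22, and Potri.010G218800, the middle one, was not called there. In a4 and a5, which knock down PAL5 and PAL2, Potri.010G218700 stood at 0.84 and 0.83 and was not called. Depth moved with these calls. The 27 libraries of the PAL constructs of batch 2 had 13.4 to 45.96 M counts, with a median of 32.1 M, and the 63 of its other constructs 2.12 to 15.4 M, against 4.57 to 9.08 M in its wildtype. In batch 1, a1-8-1 with 39.4 M counts and a2-3-2 with 22.2 M counts had 584 and 746 CPM of Potri.010G218700, each the highest of its construct. Construct i7 of batch 1, a knockdown of PAL2, PAL4 and PAL5, averaged 447 CPM, against 404 CPM in wildtype, and was not called. The part of depth in these calls was not tested. Phenylalanine ammonia-lyase, the enzyme of the PAL genes, makes the first committed step from phenylalanine toward monolignols. What the 3 loci encode is not known from the files.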

How the data were processed

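Libraries were prepared by the authors with TruSeq reagents and run on a GAIIx sequencer. Bowtie and TopHat placed the reads on v3.0 of the P. trichocarpa genome. The deposited values are raw counts per gene, made with BedTools before the authors' TMM normalization, for 41334 genes, of which 531 had no count. Totals per library were 2.12 to 93.5 M counts. Columns outside the labelled samples numbered 0, and no libraries held identical counts.

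CPM were computed from column totals. For testing, raw counts were fitted with edgeR 4.0.16 under R 4.3.3 (filterByExpr, TMM, quasi-likelihood F-tests, 1 fit per batch, Benjamini-Hochberg over all genes tested, threshold 0.05). DESeq2 1.42.0 was an alternative. Tables and figures used Python 3.11.15, NumPy 2.4.6, pandas 2.3.3 and matplotlib 3.10.9. SDs are of log2(CPM + 1). The tests and SDs were checked on simulated data. Pools of a line share a transformation event but entered the construct fits as separate replicates. The p-values of these fits therefore rest on a mix of the spread between pools and between lines of a construct.

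The members and lists were chosen with earlier results of these data known. Named genes are the 15 highest, at most 2 in each direction of the widest and narrowest batch ratios and of the most frequent calls (ties by level), and 5 on each side of the limit. A library of a12 has another pool number in the table than in the labels, was kept in its construct, and was left out where lines were added up or pools were a block. Because 0 of the identifiers matched the reference of 34621 genes (P.trichocarpa_v4.1), classes by annotation, cell type markers, targeted genes, levels per kilobase and sequences were not analysed here.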

Additional observations from a re-analysis of the deposited data

Results flagged for a closer look

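Dixon's test was applied to the share of the 9 loci of chromosome 5 and to the share of the other 191 genes in 33 groups of 4 to 10 libraries. It set apart 14 libraries for the 9 loci and 3 for the 191 genes. For normal and independent values chance would give about 3.3 of 66 tests. The shares of the 9 loci were strongly skewed, and pools of a line share a transformation event. The 3.3 is therefore no measure of chance here, and the libraries are listed as a description. Shares of the 9 loci far from the others of their construct were 63.7% in a10-14-2 (others 1.08 to 23.0%), 21.6% in a44-4-1 (0.168 to 0.680%), 14.9% in a43-13-1 (0.187 to 3.22%), 13.1% in a41-9-1 (0.219 to 0.656%), 13.1% in i26-9-1 (2.02 to 7.13%) and 13.0% in i35-15-2 (0.746 to 6.70%). They were 9.01% in i33-2-1 (0.466 to 4.24%), 7.35% in a13-6-2 (0.331 to 2.93%), 7.19% in o66-21-1 (1.12 to 3.64%) and 7.04% in a22-10-1 (0.188 to 0.863%). Smaller shares set apart were 4.14% in a1-8-1 (0.281 to 0.455%), 2.13% in i69-4-3 (0.418 to 0.752%), 0.834% in o67-3-3 (0.205 to 0.426%) and 0.809% in a28-L-3 (0.198 to 0.424%). All 14 were the highest of their group.

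For the 191 genes, as a share of the counts outside the run, i30-1-3 held 11.9% (others 17.2 to 20.3%), a22-17-3 held 19.1% (22.1 to 23.4%) and a40-10-1 held 25.4% (22.6 to 23.9%).

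Potri.015G042800 moved in opposite directions in all pools of 2 constructs, with log2 fold changes of 1.06 in o65 and -1.18 in i29, each against the wildtype of its own batch. The difference between the constructs was not tested.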

How the results depend on the processing

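The share of counts was 16.2% with 100 and 32.3% with 500 genes in place of 200. The replicate block by pool or wildtype number gave 148 genes between wildtype batches, 53, 150, 181, 16, 69 and 169 between the constructs of batches 1 to 6, and 50 higher and 429 lower calls against wildtype, all within 1.5 times the values without it. The numbers pair nothing by the labels, and of 18 same-numbered comparisons of a wildtype pool with the transgenic pools of its batch 5 had a correlation over 0.1 (range -0.440 to 0.513). Genes called between wildtype batches numbered 39 to 96 with a wildtype pool left out. With lines added up, the constructs of batches 1 to 6 differed in 0, 55, 41, 0, 2 and 21 genes. In batches 1 and 4, 30 and 24 genes then had an unadjusted p under 0.05, and DESeq2 on single pools called 68 and 29. In batch 4 there were 7 calls without scaling and 29 with DESeq2. Higher calls against wildtype numbered 111 with DESeq2, 115 with construct and wildtype alone, 616 against other constructs and 30 to 32 with a wildtype pool left out. Lower calls numbered 278 with lines added up and 765 against other constructs. In construct and wildtype alone, lower calls were 75 in i15, 52 in i35 and 0 in a43. Lower calls in a43 were 28 with lines added up, 22 without scaling, 126 against other constructs, 1 to 42 with a wildtype pool left out and 3 to 115 with a line left out, and in i15 42 to 158 with a line left out. The omission of whole lines and of the counts of the 9 loci was chosen after the data were seen. Without the 9 loci no count moved by over 1.5 times. The cause of these changes was not tested, also in the settings with fewer libraries or summed lines. Where no share of all genes is given above for a setting, its count is not read as particular to the 200. No named gene changed direction in the settings run. The choice by CPM per kilobase and the targeted genes were not run, since no reference length or name matched.

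Constructs with 3 to 5 libraries had few calls, and leaving out 1 library moved them between 0 and 2 in a1, a3, a4, a5 and a27. Counting error at this depth had a median of 0.999% for the 200 genes, and the lowest count of any in a library was 4. Each comparison with wildtype rests on 3 pools per batch.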
